A study of Homo sapiens with 15 samples.

Results

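The 9 genes described here, MDM2, SESN1, SESN2, TP53I3, BBC3, PMAIP1, ZMAT3, GADD45A and BTG2, are known as p53 target genes, and they were picked out of the 19483 genes that the array probes name through a RefSeq accession. A probe counted for a gene when its accession was a RefSeq transcript of that gene, which gave 12 probes: 3 for MDM2, 2 for TP53I3 and 1 for each other gene. The samples came from PE/CA-PJ41, an established human oral squamous carcinoma line. By the sample labels NCE cells carried the empty transfection vector, whereas the study's text describes the control as un-transfected, so whether vector and selection differ between the groups is not settled here. CYGB+ cells carried the pCMV6-Neo plasmid with the human cytoglobin cDNA, driven by its CMV promoter, with stable clones picked by cloning ring under G418. RNA was taken after 24 h in culture medium without cisplatin, on 3 occasions, and each group had 3 biological replicates, hybridised to 9 arrays for NCE and 6 arrays for CYGB+. The methods name the CYGB+ cells on the arrays as the high expressing clone LST421. The comparison is thus of a single clone with its control, and a property of that clone cannot be told apart from an effect of cytoglobin. The study lists GADD45A among genes it measured by qPCR in LST421 and further clones, which was not analysed here.

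These genes are induced by DNA damage and other stresses and act in cell cycle arrest, DNA repair, apoptosis and metabolism. MDM2, an E3 ubiquitin ligase, closes a negative feedback loop on the response, and several of the genes, GADD45A and SESN2 among them, are also induced by the ATF4 branch of the stress response.

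Values are the log2 of the green (Cy3) intensity after quantile normalisation, averaged over the arrays of a biological replicate, so that a difference of 1 is a doubling. The probe for the transgene did not separate the groups. CYGB stood at 12.85, 13.16 and 12.96 in the 3 NCE replicates and at 12.37, 13.42 and 13.01 in the 3 replicates labelled CYGB+. The 2 ranges overlapped, with a difference of -0.05 (SE 0.27, limma adjusted p = 0.922), and where this probe lies relative to the plasmid insert is not given in the sources used here. The study describes the parent line as not expressing cytoglobin, whereas the NCE samples read high on this probe. The probe therefore gives no check of the labels, and every direction below is that of the samples labelled CYGB+ against those labelled NCE. The labels name Cy3 for every sample, whereas the methods name Cy5 for the controls; the red channel was not used for any comparison.

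Slide and group lay almost on top of each other. Slide 1 held 8 NCE arrays, and slide 2 held the remaining array, from NCE replicate 1, with all 6 CYGB+ arrays. NCE replicate 1 was thus measured on both slides. Over all probes tested its array on slide 2 differed from its 2 arrays on slide 1 by a median of 0.24 in size. The difference between the groups had a median of 0.31 in size. With their signs the medians were 0.07 and -0.011. The first compares 1 array with 2 and the second means of 3 replicates, so the 2 sizes hold unlike noise. For each of the 12 probes the difference is therefore also given with slide as a block, in a fit on the 15 separate arrays with replicate as a random block, and within slide 2, where NCE is 1 array. Of the 15 arrays, 3 stood apart with a median correlation with the others under 0.97: NCE replicate 3 array 2 (0.959), CYGB+ replicate 1 array 1 (0.907) and CYGB+ replicate 3 array 2 (0.963). Results without these 3 arrays, an alternative chosen after seeing the data, are given beside the calls.

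Of the 9 genes, 3 passed an adjusted p of 0.05 in the samples labelled CYGB+, namely SESN2, TP53I3 and GADD45A, and all 3 were higher. Over the 12884 genes tested, each by its brightest probe, 4.49% were called higher, 4.57% lower and 9.06% in either direction; of all 22328 probes tested, 8.27% were called. The median difference of the 9 genes was 0.41, and that of all genes tested was -0.00. The 9 genes were chosen with earlier results of these data known, so these are not independent contrasts. Replicates of the groups did not overlap for 5 of the 9 genes, 4 higher and 1 lower, while 18% of all genes tested did not overlap and were higher and 18.4% did not overlap and were lower. In RNA from bulk cultures a change in every cell and a change in a share of the cells cannot be told apart. The 3 calls were near the threshold. Leaving out 1 replicate left no gene called in 5 of 6 cases (NCE replicate 1, 2 or 3, or CYGB+ replicate 2 or 3). In that order, 3.21%, 1.75%, 2.34%, 4.95% and 4.06% of all probes were called. In these cases 3 to 6 genes had an unadjusted p under 0.05. In the fit as reported, 5 of the 9 genes and 5974 of the 22328 probes had one. That number of probes is not given here for the other fits, so their counts at an unadjusted p stand without a share. Leaving out CYGB+ replicate 1 left 2 called, SESN1 and TP53I3, beside 7.41% of all probes. With the arrays kept separate and replicate as a random block 6 genes were called, MDM2, SESN1, SESN2, TP53I3, BBC3 and GADD45A, beside 24.6% of all genes tested. With slide added to that fit as a block only GADD45A was called, against 1.43% of genes higher and 2.2% lower. The correlation of arrays of a replicate was estimated at 0.213 without slide and 0.216 with it. At such values both fits weigh array repeats almost as separate samples. With slide as a block, slide and group were told apart by 1 NCE array only. With variances not moderated, as in the test that the methods name, no gene was called, beside 2.94% of all probes. In that fit 5 genes had an unadjusted p under 0.05. Without the filter on dim probes no gene was called by limma, beside 2.82% of all probes. In that fit 6 genes had an unadjusted p under 0.05. Without the 3 arrays that stood apart 5 genes were called, MDM2, SESN1, SESN2, TP53I3 and GADD45A, beside 23.5% of all genes tested. SESN2, TP53I3 and GADD45A then differed by 0.84, 0.79 and 0.79.

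**Figure D1:**
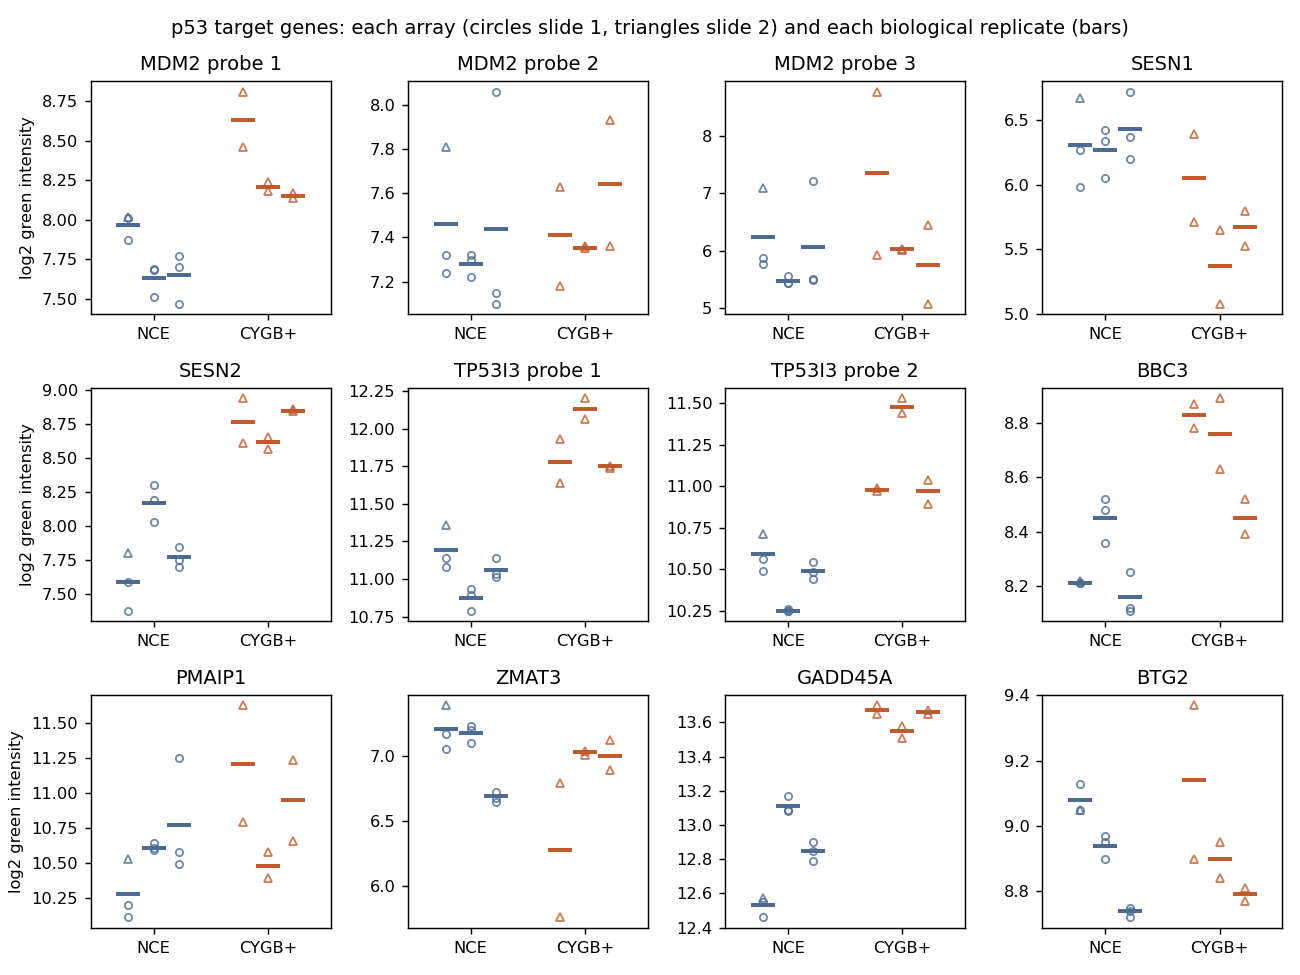
Log2 green intensity of the 12 probes of the 9 genes, each panel on its own scale, with open symbols for single arrays (circles slide 1, triangles slide 2) and bars for biological replicates 1 to 3 from left to right in each group. GADD45A lay between 12.53 and 13.11 in the NCE replicates and between 13.55 and 13.67 in those labelled CYGB+, whereas the BTG2 replicates overlapped.

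MDM2 is the E3 ubiquitin ligase of the negative feedback. Its brightest probe read 7.97, 7.63 and 7.65 in the NCE replicates and 8.63, 8.21 and 8.15 in those labelled CYGB+. The replicates did not overlap, nor did the single arrays, at 7.47 to 8.02 for NCE and 8.14 to 8.81 for CYGB+. How often single arrays did not overlap among all genes was not counted, and arrays of a replicate are technical repeats. The difference of 0.58 (SE 0.20, 95% interval 0.13 to 1.04) did not pass (adjusted p = 0.109). The second MDM2 probe gave 7.46, 7.28 and 7.44 against 7.41, 7.35 and 7.64, and the third gave 6.24, 5.48 and 6.07 against 7.35, 6.03 and 5.76. Both of these overlapped between the groups, with differences of 0.08 (adjusted p = 0.797) and 0.45 (adjusted p = 0.537). With slide as a block the 3 differences were 0.39, -0.36 and -0.70, and within slide 2 they were 0.31, -0.34 and -0.71. The third probe read 1.27 higher on slide 2 than on slide 1 in NCE replicate 1. Within slide 1 the third probe read 7.21 on NCE replicate 3 array 2 and 5.50 and 5.51 on the other arrays of that replicate. Its group difference was -0.04 without CYGB+ replicate 1, -0.06 without the 3 arrays that stood apart and 0.20 with normexp background correction.

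The sestrins SESN1 and SESN2 restrain mTORC1 and take part in the defence against oxidants. SESN2 read 7.59, 8.17 and 7.77 in the NCE replicates and 8.77, 8.62 and 8.85 in those labelled CYGB+. Every replicate labelled CYGB+ lay above every NCE replicate. The single arrays did not overlap, at 7.38 to 8.30 for NCE and 8.57 to 8.94 for CYGB+, as was also so for the brightest MDM2 probe, which was not called. SESN2 rose by 0.90 (SE 0.19, 95% interval 0.45 to 1.36), a 1.87-fold difference (adjusted p = 0.0344). The difference was 0.82 with slide as a block (adjusted p = 0.129) and 0.94 within slide 2 (adjusted p = 0.398), and with normexp background correction, where SESN2 remained called, it was 0.59. The SESN2 call was lost without any single replicate (0.78 to 1.07). SESN1 read 6.31, 6.27 and 6.43 against 6.05, 5.37 and 5.67. All 3 replicates labelled CYGB+ were below the NCE replicates, but the difference of -0.64 (SE 0.20, 95% interval -1.12 to -0.17) did not pass (adjusted p = 0.0966). It was -1.03 with slide as a block (adjusted p = 0.163), -0.97 within slide 2 (adjusted p = 0.469) and -0.75 without the 3 arrays that stood apart, where it passed (adjusted p = 0.00835). With normexp background correction the SESN1 difference was -0.23.

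TP53I3 encodes a quinone oxidoreductase, also known as PIG3, that is linked to the formation of reactive oxygen species. Its brighter probe read 11.19, 10.87 and 11.06 in the NCE replicates and 11.78, 12.13 and 11.75 in those labelled CYGB+. These did not overlap, nor did the single arrays, at 10.79 to 11.36 for NCE and 11.64 to 12.20 for CYGB+. TP53I3 rose by 0.85 (SE 0.18, 95% interval 0.43 to 1.26), a 1.8-fold difference (adjusted p = 0.0334). The other TP53I3 probe read 10.59, 10.25 and 10.49 against 10.98, 11.48 and 10.97. It was apart in the same direction, by 0.70 (SE 0.20), without passing (adjusted p = 0.0744). Its single arrays did not overlap either, at 10.25 to 10.71 for NCE and 10.89 to 11.53 for CYGB+. With slide as a block the brighter probe differed by 0.57 (adjusted p = 0.189), and within slide 2 by 0.53 (adjusted p = 0.726). The other probe differed by 0.47 with slide as a block and by 0.43 within slide 2. The TP53I3 call was lost without any single replicate (0.72 to 0.92) other than CYGB+ replicate 1 (0.90).

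BBC3 (PUMA) and PMAIP1 (NOXA) are BH3-only proteins that bind anti-apoptotic BCL2 relatives at the mitochondria. BBC3 read 8.21, 8.45 and 8.16 in the NCE replicates and 8.83, 8.76 and 8.45 in those labelled CYGB+. The highest NCE replicate met the lowest CYGB+ replicate, and the difference was 0.41 (SE 0.18, 95% interval -0.00 to 0.82, adjusted p = 0.191), 0.44 with slide as a block and 0.46 within slide 2. PMAIP1 read 10.28, 10.61 and 10.77 against 11.21, 10.48 and 10.95. These overlapped, with a difference of 0.32 (SE 0.23, adjusted p = 0.416), 0.21 with slide as a block and 0.35 within slide 2. In NCE replicate 3, array 2 alone read 11.25 for PMAIP1, and the difference was 0.17 without the arrays that stood apart. The PMAIP1 difference was 0.19 without NCE replicate 1, 0.16 without CYGB+ replicate 1 and 0.52 without CYGB+ replicate 2.

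GADD45A is a small acidic protein of growth arrest and the DNA damage response. It read 12.53, 13.11 and 12.85 in the NCE replicates and 13.67, 13.55 and 13.66 in those labelled CYGB+. The replicates labelled CYGB+ had an SD of 0.07 and lay above all NCE replicates, and the single arrays did not overlap either, at 12.46 to 13.17 for NCE and 13.51 to 13.70 for CYGB+. GADD45A rose by 0.80 (SE 0.19, 95% interval 0.36 to 1.24), a 1.74-fold difference (adjusted p = 0.045). NCE replicate 1 read 0.07 higher on slide 2 than on slide 1. The difference with slide as a block was 0.93 (adjusted p = 0.0302), and within slide 2 it was 1.05. The only NCE array on slide 2 came from replicate 1, the lowest NCE replicate for GADD45A. These 2 values therefore depend on that replicate, and they do not show the difference to be free of slide. The GADD45A call was lost without any single replicate (0.65 to 0.94), the lowest value being that without NCE replicate 1, the replicate measured on both slides.

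The last pair did not pass in either direction. ZMAT3, a zinc finger RNA-binding protein, lay between 6.69 and 7.21 in the NCE replicates and between 6.28 and 7.03 in those labelled CYGB+, overlapping, with a difference of -0.25 (SE 0.26, adjusted p = 0.573). The ZMAT3 difference was -0.58 with slide as a block, -0.62 within slide 2, -0.01 without CYGB+ replicate 1, -0.42 without NCE replicate 3, -0.13 with normexp background correction and -0.11 without the arrays that stood apart. BTG2, an antiproliferative protein that recruits the deadenylase complex to mRNA, read 9.08, 8.94 and 8.74 against 9.14, 8.90 and 8.79. Its difference was 0.02 (SE 0.17, 95% interval -0.38 to 0.43, adjusted p = 0.953), -0.04 with slide as a block and -0.11 within slide 2, which leaves changes inside that interval undetected.

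**Figure D2:**
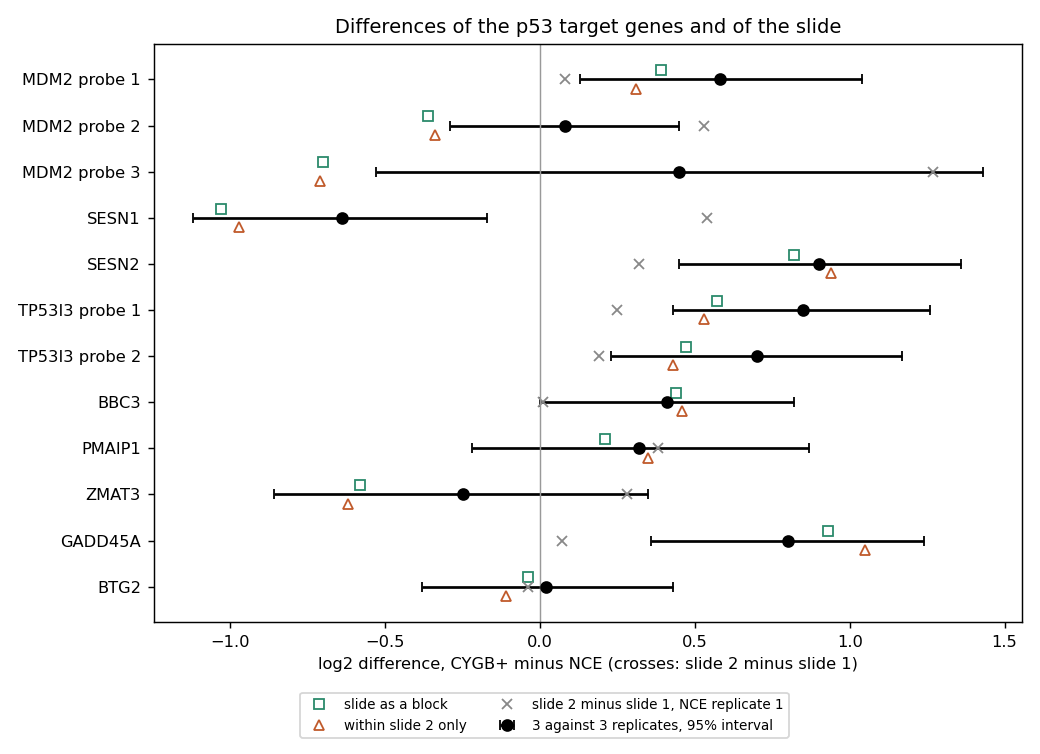
Log2 difference of the 12 probes, samples labelled CYGB+ minus those labelled NCE, with 95% intervals (filled circles), the difference with slide as a block (squares), the difference within slide 2 (triangles) and, as crosses, slide 2 minus slide 1 in NCE replicate 1. The array of NCE replicate 1 on slide 2 read 1.27 above its arrays on slide 1 for the third MDM2 probe, whose group difference was 0.45, and 0.07 above them for GADD45A, whose group difference was 0.80.

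The table of RefSeq promoters used here (GRCh38.p14, 250 bases before to 50 after each start) matched 8 of the 9 genes, all but GADD45A, with 14 promoters. Those of SESN2 and TP53I3 are shown because both genes rose.
SESN2, chr1:28259268-28259567, plus strand: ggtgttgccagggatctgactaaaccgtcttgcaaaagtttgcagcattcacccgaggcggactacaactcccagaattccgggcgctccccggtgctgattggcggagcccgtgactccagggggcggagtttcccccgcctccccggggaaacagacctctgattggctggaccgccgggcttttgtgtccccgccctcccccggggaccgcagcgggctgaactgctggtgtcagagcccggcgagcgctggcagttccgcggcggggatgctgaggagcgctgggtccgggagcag
TP53I3, chr2:24084785-24085084, minus strand: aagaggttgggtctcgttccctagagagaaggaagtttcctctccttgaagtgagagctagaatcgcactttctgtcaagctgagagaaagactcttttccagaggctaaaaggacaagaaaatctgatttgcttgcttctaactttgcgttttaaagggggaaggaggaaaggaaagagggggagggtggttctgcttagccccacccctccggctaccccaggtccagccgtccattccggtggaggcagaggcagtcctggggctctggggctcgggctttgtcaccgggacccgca
Which starts the cells use was not measured.

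Other p53 target genes were compared as a list of 29 genes, of which 26 were tested. In this list 1 gene rose and 1 fell, beside the 9.06% of all genes called, and the median difference was 0.13 beside -0.00 for all genes tested. NINJ1, a membrane protein of plasma membrane rupture, rose by 0.64 (SE 0.16, adjusted p = 0.0479), a call lost with the replicate block (0.64, adjusted p = 0.0501), with slide as a block (0.57, adjusted p = 0.123) and without any single replicate of either group (0.59 to 0.71). APAF1, the scaffold of the apoptosome, fell by 0.97 (SE 0.15, adjusted p = 0.0135). The APAF1 call was lost with slide as a block (-1.12, adjusted p = 0.156), without NCE replicate 1, 2 or 3 (-0.93, -1.04 and -0.95) and with normexp background correction, where the difference was -0.24. CDKN1A, the cyclin-dependent kinase inhibitor p21, stood at 6.15 ± 0.32 (SD, n = 3) in NCE and 6.48 ± 1.06 (SD, n = 3) in samples labelled CYGB+, a difference of 0.33 (SE 0.49, adjusted p = 0.709). CYGB+ replicate 1 read 5.26 for CDKN1A and the other CYGB+ replicates 7.10 and 7.08. The probe is dim, and it was well above background on all 9 NCE arrays but on 5 of the 6 CYGB+ arrays. The CDKN1A difference was 0.94 without CYGB+ replicate 1, 0.02 and 0.03 without replicates 2 and 3, 0.14 without NCE replicate 1, 0.67 with slide as a block (adjusted p = 0.902), 0.80 within slide 2 and 0.83 without the 3 arrays that stood apart (adjusted p = 0.0674). BAX differed by 0.20 at its brighter probe (adjusted p = 0.5) and by 0.64 at its dimmer probe (adjusted p = 0.0461). The brighter BAX probe differed by 0.15 with slide as a block, 0.09 without NCE replicate 1 and 0.12 without CYGB+ replicate 3.

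A list of regulators and upstream kinases of the response, with their relatives, had 14 genes tested, with 2 called higher, beside the 4.49% of all genes, none lower and a median of -0.07. ATM, the kinase that signals double-strand breaks, rose by 1.11 (SE 0.19, adjusted p = 0.0174) at its brighter probe and differed by -0.30 at its dimmer probe (adjusted p = 0.585). CDKN2A, which encodes p16 and the MDM2 antagonist ARF, rose by 1.04 (SE 0.23, adjusted p = 0.0376). The study reports CDKN2A higher in its cytoglobin cells, which may rest on these same arrays or on its qPCR, where CDKN2A is also listed. MDM4, the MDM2 relative, differed by 0.58 (SE 0.22, adjusted p = 0.144), by 0.33 with slide as a block and by 0.38 with normexp background correction. Its other probe differed by 0.04 (adjusted p = 0.933). With slide as a block neither ATM (0.91, adjusted p = 0.362) nor CDKN2A (0.78, adjusted p = 0.255) was called. The CDKN2A call was also lost without any single replicate (0.87 to 1.17), and the ATM call without NCE replicate 1 (0.97) or 2 (1.08) or CYGB+ replicate 3 (1.12). With normexp background correction the ATM difference was 0.45 and remained called.

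Among relatives of the 9 genes, 7 of 9 were tested and 4 were called, 2 in each direction, beside the 9.06% of all genes. GADD45G rose by 1.28 (SE 0.29, adjusted p = 0.0389) and ZMAT2 by 1.03 (SE 0.16, adjusted p = 0.0129), whereas the antiproliferative genes BTG3 and TOB1 fell by 1.43 (SE 0.21, adjusted p = 0.011) and 0.93 (SE 0.21, adjusted p = 0.0404). GADD45B differed by 0.32 (SE 0.16, adjusted p = 0.256) and by 0.16 with slide as a block, and SESN3 was well above background on 1 of 15 arrays and was not tested. With slide as a block none of the 4 was called. The differences were then 0.91 for GADD45G (adjusted p = 0.385), 0.53 for ZMAT2 (adjusted p = 0.523), -1.30 for BTG3 (adjusted p = 0.0636) and -1.07 for TOB1 (adjusted p = 0.159). Leaving out NCE replicate 2 also ended all 4 calls, with differences of 1.11, 1.01, -1.36 and -0.95. The calls of GADD45G, ZMAT2 and TOB1 were lost without other single replicates too: without NCE replicate 3 for ZMAT2 (0.97), without NCE replicate 1 or 3 or CYGB+ replicate 3 for TOB1 (-0.92, -0.92 and -0.96), and without NCE replicate 1 or 3 or CYGB+ replicate 1 or 3 for GADD45G (1.37, 1.36, 1.03 and 1.27). With normexp background correction the GADD45G difference was 0.84 and remained called.

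Integrated stress response genes, the list that shares SESN2, had 4 of 11 genes called, all higher, beside the 4.49% of all genes, and a median difference of 0.51. Without SESN2 these were 3 of 10 and 0.45. CHAC1, a glutathione-degrading enzyme induced through ATF4, read 9.35, 9.64 and 9.10 in the NCE replicates and 10.74, 10.82 and 10.61 in those labelled CYGB+. It rose by 1.36 (SE 0.19, adjusted p = 0.00903), and with slide as a block by 1.57 (adjusted p = 0.00761). ASNS, asparagine synthetase, read 12.59, 12.70 and 12.44 against 13.84, 13.51 and 13.79. It rose by 1.14 (SE 0.17, adjusted p = 0.0112), and with slide as a block by 1.00 (adjusted p = 0.0189), a call lost without NCE replicate 3 (1.07). DDIT3, the transcription factor CHOP, rose by 1.08 (SE 0.20, adjusted p = 0.0218), a call lost with slide as a block (1.05, adjusted p = 0.0602) and without NCE replicate 1, 2 or 3 or CYGB+ replicate 3 (0.99, 1.12, 1.14 and 1.10), while ATF4 mRNA itself differed by -0.03 (adjusted p = 0.934). Whether ATF4 acted on SESN2 and GADD45A was not tested.

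**Figure D3:**
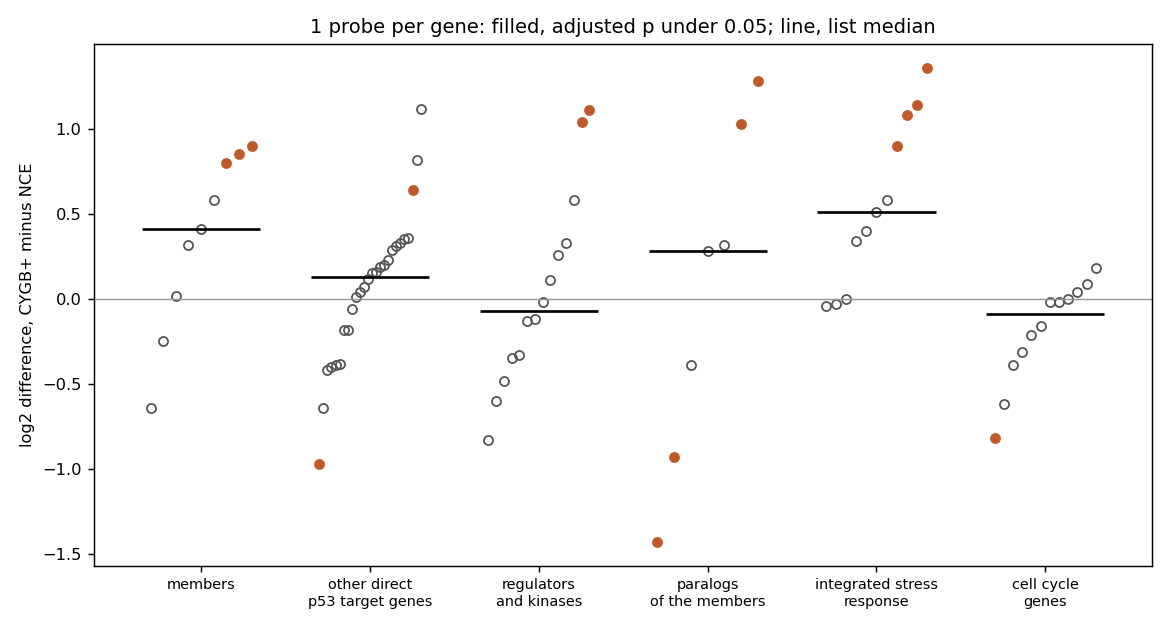
Log2 difference of every gene tested in each list, 1 probe per gene, samples labelled CYGB+ minus those labelled NCE, with filled points for an adjusted p under 0.05 and a line at the list's median. The 9 genes have a median of 0.41, the other p53 target genes 0.13 and the integrated stress response genes 0.51. The genes and lists were chosen with earlier results of these data known.

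Cell cycle genes that p21 and the DREAM complex repress had 1 of 12 called, a share near the 9.06% of all genes, and a median of -0.09. AURKA, a mitotic kinase, fell by 0.82 (SE 0.20, adjusted p = 0.0461), a call lost with the replicate block (-0.82, adjusted p = 0.0575), with slide as a block (-0.96, adjusted p = 0.25) and without any single replicate (-0.91 to -0.68).

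Markers of the cell type were read in the same samples. All 9 squamous epithelial markers were well above background on all 15 arrays, SFN the brightest, and none was called. Replicates of the groups did not overlap for 4 of them, KRT14 (difference 0.66, adjusted p = 0.137), KRT6A (-0.46, adjusted p = 0.118), DSG3 (-0.44, adjusted p = 0.142) and EPCAM (-0.57, adjusted p = 0.0946). Among all genes tested, 18% did not overlap and were higher and 18.4% did not overlap and were lower. The summed log2 level of all 9 was 17.23, 17.37 and 17.30 in the NCE replicates and 17.13, 17.49 and 17.17 in those labelled CYGB+. The brightest markers weigh most in this sum, so it says little about the others. Of the 12 fibroblast, endothelial and leukocyte markers 3 were well above background on every array, COL1A2, VIM and CD14. PDGFRB, LUM and VWF were well above background on none. COL1A2, a fibrillar collagen chain, fell by 2.53 (SE 0.21, adjusted p = 0.00211), from 8.44 ± 0.09 (SD, n = 3) to 5.91 ± 0.36 (SD, n = 3), and with slide as a block it fell by 2.80 (adjusted p = 3.5e-05). VIM differed by -0.91 (SE 0.25, adjusted p = 0.0689). The VIM difference was -0.84 with slide as a block (adjusted p = 0.389). Without the 3 arrays that stood apart it was -0.73 and passed (adjusted p = 0.0434). COL1A1, well above background on 13 of the 15 arrays, differed by 0.23 (SE 0.39, adjusted p = 0.744). The summed fibroblast level was 13.39, 13.93 and 13.27 in the NCE replicates and 12.30, 12.57 and 12.94 in those labelled CYGB+, with VIM the brightest. The part of these markers in the values of the 9 genes was not tested.

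**Figure D4:**
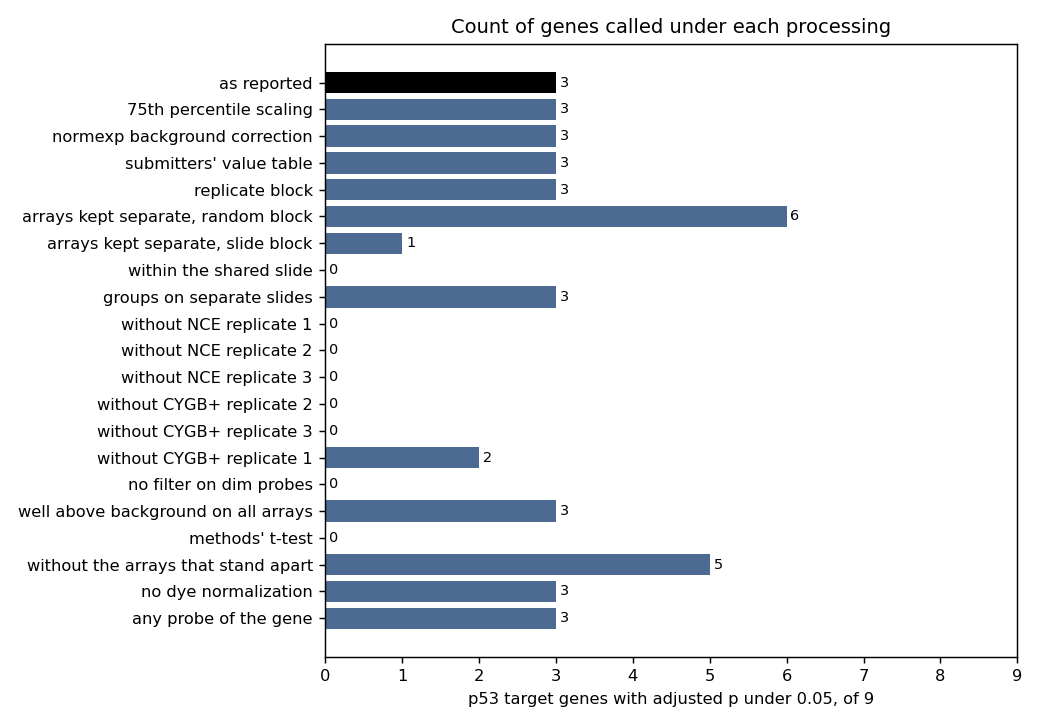
Number of the 9 genes with an adjusted p under 0.05 as reported (black) and under each other processing or set of arrays (blue). The count was 3 as reported, 6 with arrays kept separate and replicate as a random block, 1 with slide added to that fit, 0 with variances not moderated, without the filter on dim probes and in 5 of the 6 cases with a replicate left out. Within slide 2 NCE is 1 array, and its count of 0 says little.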

How the data were processed

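Each sample was 1 array of an Agilent 8x60K slide, and the deposited scanner files hold green and red intensity written by Feature Extraction 10.7.3.1, with the background subtracted and the dyes normalised by that software. The table of values the authors deposited holds the natural log of background-subtracted green signal, shifted by a constant per array and centred on the CYGB+ median of each probe. It lists 15031 array probes and served as an alternative. Spots marked as outliers and control spots were left out, spots of a probe averaged, log2 values quantile normalised, and array repeats averaged. Probes well above background on at least 6 of 15 arrays were fitted with limma 3.58.1 in R 4.3.3, with Benjamini-Hochberg adjustment over all probes tested. The fit was tested on simulated data. A gene of the lists is not reported here. A gene was read by its probe with the highest mean level, and 60.0% of the 42405 probes had a name. Genes named from a list were those called with a log2 difference of at least 0.5, up to 6 per list, beside a few named whatever their value. The members and lists were chosen with earlier results of these data known. Same-numbered replicates of the groups deviated together, with correlations of 0.218, 0.279 and 0.314; pairing NCE 1, 2 and 3 with CYGB+ 2, 3 and 1 gave 0.181, 0.224 and 0.172, and with CYGB+ 3, 1 and 2 it gave -0.488, -0.396 and -0.499. The labels do not say that a number marks a shared extraction. The number of arrays limits the precision.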

Additional observations from a re-analysis of the deposited data

Results flagged for a closer look

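Arrays of a group were compared for each of the 12 probes, 24 sets in all, and 4 held an array far from the others. How many such sets chance alone would pick out was not measured, and arrays of a replicate are not independent. The third MDM2 probe read 8.77 on CYGB+ replicate 1 array 1, while the other CYGB+ arrays read 5.08 to 6.45. ZMAT3 read 5.76 on that same array, against 6.79 to 7.12 on the others. PMAIP1 read 11.25 on NCE replicate 3 array 2, against 10.11 to 10.64. These arrays are among the 3 that stood apart over all probes. BTG2 read 9.37 on CYGB+ replicate 1 array 2, against 8.77 to 8.95.

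The red channel, which the labels describe for no sample, carried signal: 10 of the 12 probes were well above background there on all 15 arrays. Its log2 intensity, not normalised, had a median over the arrays of 7.62 for NCE and 8.11 for CYGB+ at SESN2, 11.11 and 11.78 at the brighter TP53I3 probe, and 12.98 and 13.03 at GADD45A. At genes not called as reported, it was 9.09 and 9.62 for BTG2, 7.08 and 6.73 for SESN1, and 6.32 and 6.06 for ZMAT3. What RNA it holds is not settled by the labels, and no comparison was drawn from it.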

How the results depend on the processing

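Counts are given as probes, then the 9 p53 targets, other targets, regulators, relatives, stress genes and cell cycle genes; they were 1847, 3, 2, 2, 4, 4 and 1 as reported. With 75th percentile scaling, regulators fell to 1 and cell cycle genes to 0. With normexp, other targets were 5 and cell cycle genes 2. That setting used the median spot signal in place of the mean and an offset of 50. Background method, spot signal and offset changed together, so a value that moved cannot be put down to any of them alone. With the replicate block, cell cycle genes were 0 and probes 2597; it changed no call of the 9 targets, and each replicate correlated best with its own number. Arrays kept separate with a random replicate block gave 4754 probes, then 6, 8, 5 and, for cell cycle genes, 2. Slide added to that fit as a block gave 655, 1, 0, 0, 0, 2 and 0, and 40.5% of calls higher against 50.8%. Within slide 2, where NCE is 1 array and the counts say little, it was 37 and 0 for each list. Without the dim filter the counts were 1196, 0, 1, 1, 2 and, for cell cycle genes, 0. On probes well above background everywhere, other targets were 4 and cell cycle genes 2. The t-test the methods name, run here on replicate means, which may not be the study's input, gave 657, 0, 1, 0, 1, 2 and 0. Chosen after seeing the data, leaving out the arrays that stood apart gave 4885, 5, 5, 4 and, for cell cycle genes, 2, and no dye normalisation gave 0 cell cycle genes. Leaving out a replicate in turn gave 391 to 1654 probes, 0 to 2 targets, 0 to 1 other targets, 0 to 1 regulators, 0 to 4 relatives, 1 to 3 stress genes and 0 cell cycle genes. Direction turned for the second MDM2 probe (-0.36 slide block, -0.34 within slide 2, -0.01 to 0.13 leaving out a replicate), the third (-0.70, -0.71, -0.06 without the arrays apart, -0.04 to 0.76), BTG2 (-0.04, -0.11, -0.08 to 0.10) and CYGB (0.11 at the 75th percentile, 0.05 in the deposited table, -0.30 to 0.23); the cause was not tested. SESN2, TP53I3 and GADD45A were higher in each of these.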

Other observations

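In the table of values the authors deposited, on the natural log scale, the column medians in order of array repeat were -0.161, -0.015 and 0.11 for NCE replicate 1, -0.0405, 0.0386 and 0.0863 for replicate 2 and -0.0486, 0.182 and -0.0223 for replicate 3. For CYGB+ they were 0.142 and 0.0012 for replicate 1, -0.0097 and -0.0483 for replicate 2 and -0.0219 and 0.161 for replicate 3. The columns followed the scanner files' background-subtracted green signal up to a constant per array, which settled their scale, centring and direction.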
